A study of Mus musculus with 9 samples.

Results

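The genes described here encode the activators, receptor and an inhibitor of the plasminogen system (Plau, Plat, Plaur and Serpine2) and membrane proteins through which thrombin and protein C act on cells (Thbd, Procr, F2r and F2rl2). F2rl1, a related receptor cut by trypsin-like proteases rather than thrombin, is included. All were taken by name or by the RefSeq identifier of the probe, which gave 9 genes and 13 probes of the 27670 gene names and 41174 probes on the array. The list was drawn up with the contrast between injured and uninjured ganglia already known. That contrast is therefore given for the members as a description, without p-values or a test of the members as a group. Where members fall in the fit over all genes is also a description. After sciatic nerve transection, Procr and Plaur lay far above their uninjured levels on every array (10.7-fold and 5.53-fold on the brightest probe of each). Plat and Plau lay higher by less (1.78-fold and 1.43-fold on the brightest probe of each), and the other Plat probes gave 1.40-fold and 1.12-fold. The thrombin receptors F2r and F2rl2 were lower in the mean. Serpine2 was at the same mean level in both groups to within its error, Thbd and F2rl2 overlapped between groups, and F2rl1 was not above background on any array.

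Plasmin, the protease that dissolves fibrin and cleaves matrix proteins, is cut from plasminogen by the tissue activator (Plat) and the urokinase activator (Plau). Plaur, a receptor anchored to the cell surface, holds the urokinase activator there, and the serpin Serpine2 inhibits both activators and thrombin. In the protein C pathway, thrombomodulin (Thbd) turns thrombin toward protein C, which is activated while bound to its endothelial receptor (Procr), and activated protein C can in turn cleave protease-activated receptors. Sensory neurons are known to make and release plasminogen activators as axons grow, and plasmin clears fibrin from injured nerve.

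Total RNA of L3/L4 dorsal root ganglia (DRG) of adult mice, uninjured (4 arrays) or with the sciatic nerve transected (5 arrays), was measured on 2-colour Agilent arrays. All 9 samples, the uninjured ones included, carried the labels cre.neg and jun.wt, and strain, sex and exact age were not given. The labels of every sample and the study's methods give 3 days after transection, while the text of its results gives an earlier time. The methods name contralateral ganglia as controls for nerve crush in other assays, but neither they nor the labels say whether the array controls were taken from injured animals, or how many mice each sample holds. Samples were therefore treated as unpaired, and the spread between them may be in part technical. Each value is the log2 ratio of the sample (Cy5) to a universal mouse reference RNA (Cy3), labelled the same way round on every array. A ratio of 0 means equal signal to the reference, and the level of a probe cannot be set against that of another probe. Because whole ganglia were used, a change in the number of cells of a type and a change in RNA per cell cannot be told apart.

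Each array had Cy5 signal above background on 71.0% to 78.9% of its spots. The arrays lay on 3 slides, of which only slide 2 held both groups (uninjured replicate 1 with injured replicates 1, 2 and 5), so slide and injury overlap in large part and differences within slide 2 are given beside those over all arrays. Atf3, the transcription factor gene that marks axotomised sensory neurons, read −0.999 ± 0.091 (SD, n = 4) before and 4.14 ± 0.094 (SD, n = 5) after injury, as labelled. The defining sensory neuron genes Calca and Nefh lay far above the reference in uninjured DRG, at log2 ratios of 9.31 and 6.60.

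Of the 9 members, 5 had a promoter window in RefSeq (build GRCm38.p6), reaching from 250 bases before to 50 bases after the start of the gene. These windows are shown as a description, since c-Jun, the factor of the jun.wt label that all 9 samples share, binds DNA in AP-1 dimers. Each was searched for TGANTCA, a loose pattern for the AP-1 letters in which N is any base, and which covers both strands. The cyclic AMP response element TGACGTCA, which does not overlap it, was also searched for. TGANTCA was found in 4 of the 5 windows and in 7.81% of all 32851 windows of that length. TGACGTCA was found in 0 of the 5 windows and in 1.79% of all windows. Since the members were chosen on the contrast and only 5 had a window, nothing is read from these shares. The part of c-Jun in the values was not tested. The matches are printed with up to 20 bases on either side, in lower case, with the 7 letters of the motif in capitals and with the distance of the motif from the start of the gene.
Plaur, 69 bases before the start, chr7:24462394-24462440, + strand: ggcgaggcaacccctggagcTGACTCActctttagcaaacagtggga
Procr, 154 bases before the start, chr2:155751043-155751089, + strand: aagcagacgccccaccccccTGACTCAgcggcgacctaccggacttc
F2r, 204 bases before the start, chr13:95618644-95618690, − strand: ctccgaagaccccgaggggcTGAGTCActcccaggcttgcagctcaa
F2rl2, 233 bases before the start, chr13:95696670-95696713, + strand: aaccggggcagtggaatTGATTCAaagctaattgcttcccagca
F2rl2, 54 bases before the start, chr13:95696846-95696892, + strand: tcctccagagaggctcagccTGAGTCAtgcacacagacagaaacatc
The window of Serpine2 held neither motif. In the F2rl2 match 233 bases before the start the N was T, while it was C or G in the other matches. The letters occur in windows of genes that lay higher after injury (Plaur, Procr) and of genes that lay lower (F2r, F2rl2). A match is a description of these letters and not a bound site. Windows of Plau, Plat, Thbd and F2rl1 were not analysed here.

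Plaur, the urokinase receptor, was measured by 2 probes (chr7:21263487-21263546 and chr7:21262233-21262410 in build mm7 of the file headers, whose gene models were not used here). On the brighter probe the log2 ratios of uninjured replicates 1 to 4 were −1.65, −1.68, −1.71 and −1.74, and those of injured replicates 1 to 5 were 0.79, 0.94, 0.69, 0.83 and 0.61. The groups were separated by 2.26, many times the spread within either group. The means of −1.70 ± 0.038 (SD, n = 4) and 0.77 ± 0.13 (SD, n = 5) differed by 2.47 (SE 0.072), and by 2.43 within slide 2. The second probe read −2.01, −1.96, −2.25 and −2.04 in uninjured and 1.00, 1.1, 0.78, 0.99 and 0.75 in injured samples. It gave a difference of 2.99 (SE 0.090, 7.93-fold), so the probes shared the direction and differed in size. Plaur ranked 26 among the 20898 genes tested by the size of the rise.

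Plau encodes the urokinase activator, the ligand of Plaur. One of its 2 probes (chr14:18499577-18499636) was above background on all 9 arrays. Uninjured replicates 1 to 4 read −2.56, −2.77, −2.56 and −2.46 and injured replicates 1 to 5 read −2.09, −2.07, −2.07, −2.03 and −2.09. Every injured sample lay above every uninjured sample, with a gap of 0.36, and the injured samples lay within a narrow range. The means of −2.59 ± 0.13 (SD, n = 4) and −2.07 ± 0.027 (SD, n = 5) differed by 0.52 (SE 0.068), and by 0.47 within slide 2. This probe was dim, with a Cy5 signal of 120 to 218 over a local background of 43.5 to 59, and its difference was 0.51 without background correction, 0.65 with normexp fitted on all spots and 0.75 with an offset of 0. Over all processing alternatives it ranged from 0.45 (median centring) to 0.82 (Agilent's ratio). The other Plau probe (chr14:18497190-18497556) was above background on 0 of 9 arrays.

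Plat, the tissue activator, had 3 probes. The brightest (chr8:21567937-21567997) read −0.87, −1.34, −0.81 and −0.97 in uninjured replicates 1 to 4 and −0.076, −0.0088, −0.22, −0.14 and −0.36 in injured replicates 1 to 5. The groups did not overlap on this probe, with uninjured replicate 2 lowest and injured replicate 5 nearest to the uninjured samples. Their means of −0.996 ± 0.24 (SD, n = 4) and −0.16 ± 0.14 (SD, n = 5) differed by 0.83 (SE 0.11), and by 0.72 within slide 2. The second probe (chr8:21567376-21567435) read −1.18, −1.19, −1.05 and −1.12 in uninjured and −0.42, −0.40, −0.74, −0.61 and −1.07 in injured samples. Injured replicate 5 lay among the uninjured samples there, and the difference was 0.49 (SE 0.12). The third probe (chr8:21561146-21561205), listed in the files under a cDNA clone rather than the RefSeq transcript, was above background on only 2 uninjured and 4 injured arrays and differed by 0.16 (SE 0.092). With the mean of the 3 probes in place of the brightest, the difference of Plat was 0.49.

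Serpine2, which encodes the inhibitor protease nexin, was read by a single probe lying across chr1:80011225-80013842. Uninjured replicates 1 to 4 read 3.14, 2.92, 2.86 and 2.63, and injured replicates 1 to 5 read 3.18, 2.93, 2.54, 3.10 and 2.64. The groups covered nearly the same range. The means of 2.89 ± 0.21 (SD, n = 4) and 2.88 ± 0.28 (SD, n = 5) differed by −0.0093 (SE 0.14), and by −0.22 within slide 2. The sign of so small a difference turned with the processing. A probe that the files describe as a Serpine2 product but list under a cDNA clone, and which the rule for members left out, differed by −0.041.

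Procr encodes the endothelial protein C receptor and was read by a single probe (chr2:155496067-155496126). Uninjured replicates 1 to 4 read −1.86, −1.98, −1.32 and −1.59, and injured replicates 1 to 5 read 1.72, 1.83, 1.58, 1.87 and 1.66. The lowest injured sample lay 2.89 above the highest uninjured one. The means of −1.69 ± 0.30 (SD, n = 4) and 1.73 ± 0.12 (SD, n = 5) differed by 3.42 (SE 0.13), and by 3.60 within slide 2. Procr thus moved from below to above the reference, and its rise ranked 6 among the 20898 genes tested.

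Thbd encodes thrombomodulin, the partner of Procr in the activation of protein C (probe at chr2:148145356-148145415). Uninjured replicates 1 to 4 read 0.0059, 0.041, 0.80 and 0.75, and injured replicates 1 to 5 read 0.68, 1.23, 0.75, 1.05 and 1.80. Uninjured replicates 3 and 4 lay within the injured range, and injured replicate 5 was the highest of all. The means of 0.40 ± 0.44 (SD, n = 4) and 1.1 ± 0.45 (SD, n = 5) differed by 0.70 (SE 0.25). Within slide 2 the difference was 1.23, from the single uninjured sample on that slide, which had the lowest value of all.

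The remaining members are receptors that proteases switch on by cutting their outer end. F2r, the main receptor for thrombin (probe at chr13:92670968-92671027), read −3.11, −3.19, −2.97 and −3.04 in uninjured replicates 1 to 4 and −3.51, −3.82, −3.72, −3.58 and −3.47 in injured replicates 1 to 5. Every injured sample lay below every uninjured sample, by a gap of 0.28. The means of −3.08 ± 0.093 (SD, n = 4) and −3.62 ± 0.15 (SD, n = 5) differed by −0.54 (SE 0.084, 1.46-fold lower), and by −0.49 within slide 2. F2rl2, a receptor that helps thrombin act on other receptors of the family (probe at chr13:92771149-92771208), read 1.38, 1.38, 1.12 and 0.97 in uninjured and 1.07, 0.94, 0.72, 0.61 and 0.59 in injured samples. Injured replicate 1 lay above uninjured replicate 4, so these groups overlapped. The means of 1.21 ± 0.20 (SD, n = 4) and 0.79 ± 0.21 (SD, n = 5) differed by −0.43 (SE 0.12, 1.34-fold lower), and by −0.51 within slide 2.

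F2rl1, a receptor cut by trypsin-like proteases rather than thrombin (probe at chr13:92579354-92579413), was above background on 0 of 9 arrays. Its Cy5 signal of 44.4 to 65.3 lay in the range of the local background, 38 to 66.5. No difference is therefore given for F2rl1. The genes of all 3 receptors lie on chromosome 13, within the same region of build mm7.

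**Figure D1:**
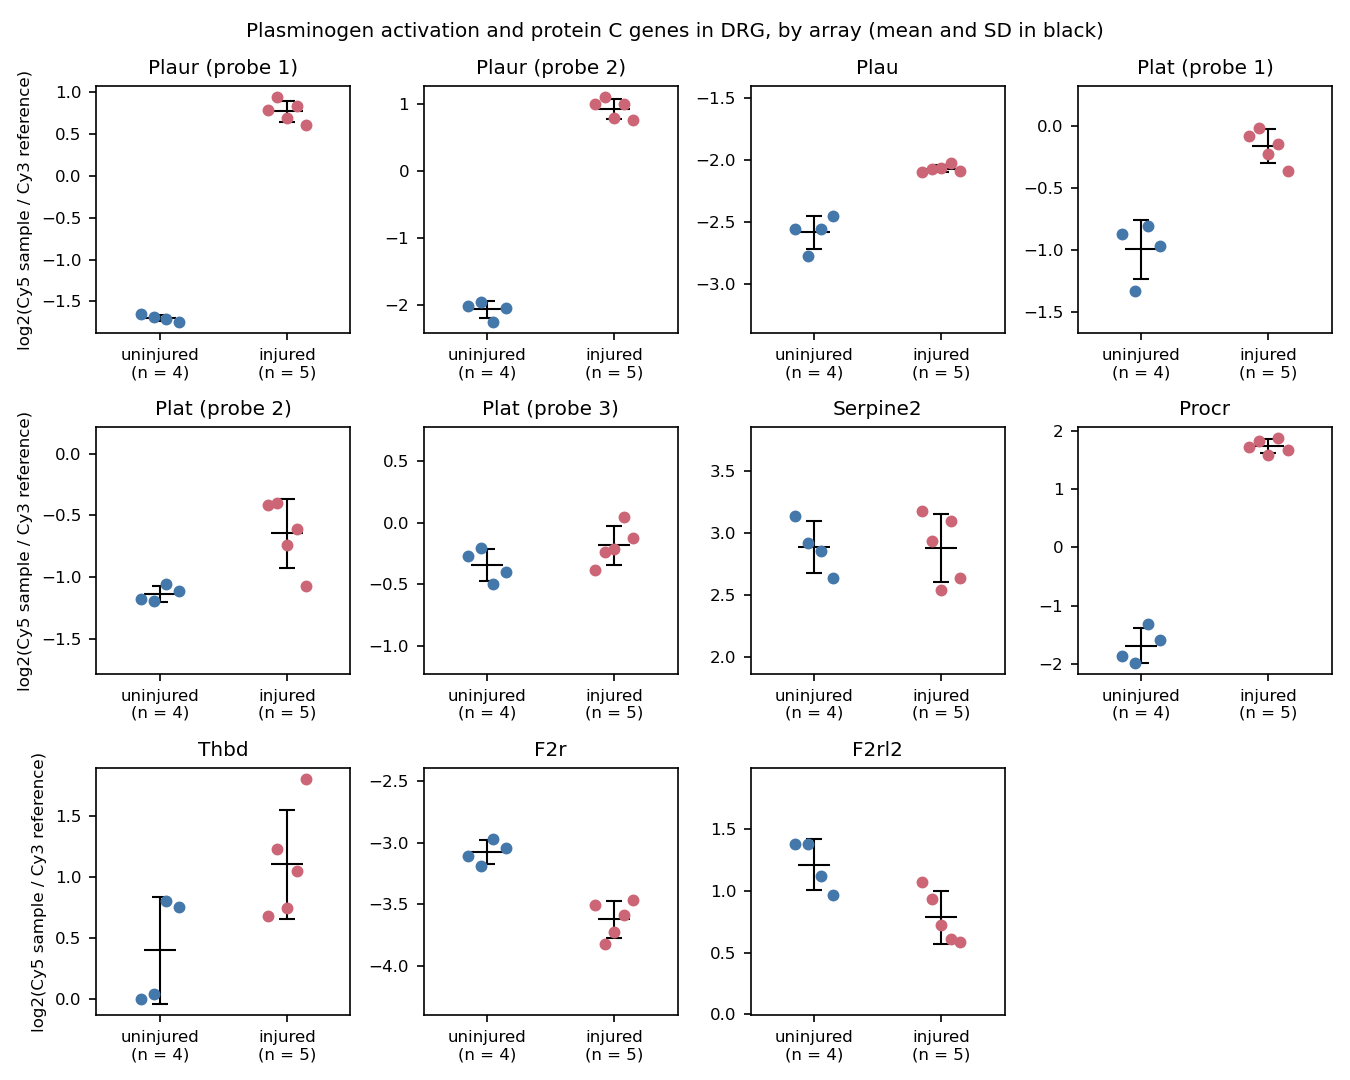
Log2 ratio of Cy5 (DRG sample) to Cy3 (reference) for each member probe above background on enough arrays to be tested, in 4 uninjured (blue) and 5 injured (red) samples. Points are arrays, black lines the mean and SD, and the vertical axes differ between panels. The groups lie farthest apart for Procr (gap of 2.89) and the Plaur probes (gaps of 2.26 and 2.71), while they overlap for Serpine2, Thbd, F2rl2 and the dimmer Plat probes.

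The fit over all 20898 genes with limma called 5311 genes, or 25.4%, at a Benjamini-Hochberg adjusted p under 0.05. Of these, 2390 (11.4%) were higher and 2921 (14.0%) lower after injury. Of the 8 members tested, 4 were past that threshold and higher (Plaur, Plau, Plat and Procr), 2 were past it and lower (F2r and F2rl2), and Thbd and Serpine2 were not past it. Groups did not overlap for 5 of the 8 members and for 23.9% of all genes tested. Since the members were chosen on this contrast, nothing is read from these shares. The median difference was 0.61 over the 8 members and 0.0011 over all genes tested. With the slide as a fixed block, which leaves the 4 arrays of slide 2 to carry the difference, only Plaur and Procr stayed past the threshold. F2rl2 also left it when the arrays were centred on their medians, when the Cy5 channel was used alone, and without uninjured replicate 1 or 2 or injured replicate 3, 4 or 5. Thbd passed it with the Cy5 channel alone, with the slide as a random block and without injured replicate 1. The random block was fitted at a negative correlation within slides (−0.21).

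**Figure D2:**
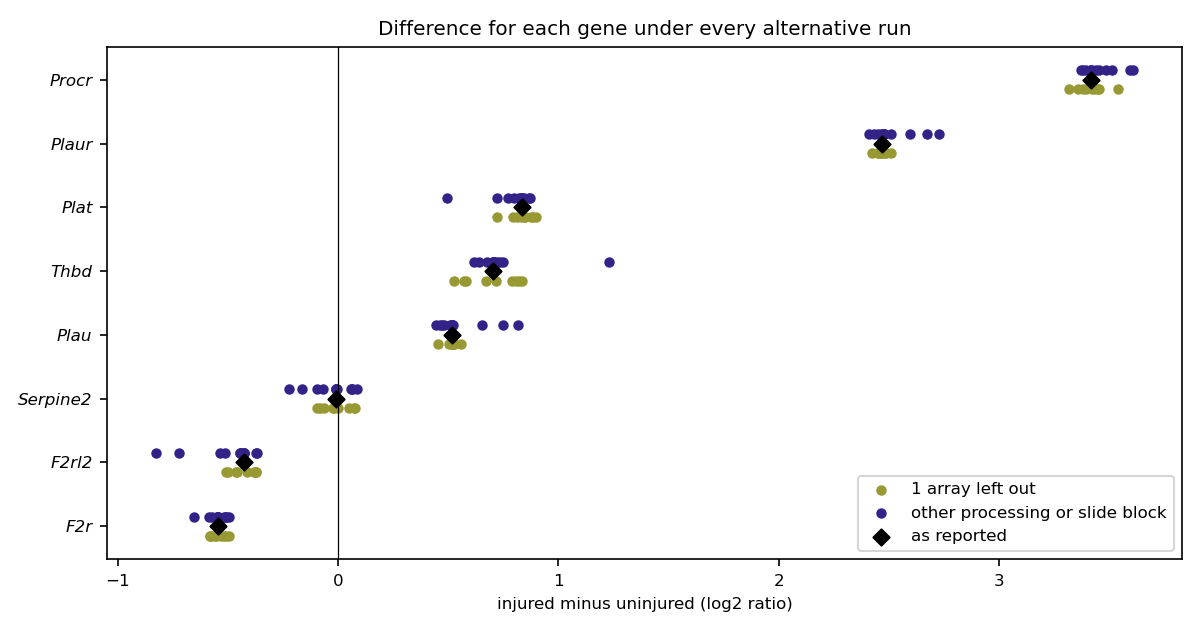
Difference between injured and uninjured DRG (log2 ratio) for each of the 8 members tested, as reported (black diamonds), under 12 other processing settings or slide blocks (purple) and with each array left out (olive). Procr stayed between 3.32 and 3.61 and Plaur between 2.41 and 2.73, while Serpine2 fell on either side of 0 and Thbd reached 1.23 with the slide as a fixed block.

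Other genes of the plasminogen system were followed in a list of 17, of which 12 were tested. Of the 12, 2 rose and 2 fell (33.3% called, against 25.4% of all genes), and the median difference of the list was 0.15. Anxa2 and S100a10, whose products form a surface complex that binds plasminogen and the tissue activator, rose by 0.28 (SE 0.068, limma adjusted p = 0.012) and 0.37 (SE 0.095, limma adjusted p = 0.016). These small rises were not called with an offset of 0, with median centring, with the Cy5 channel alone or with the slide as a fixed block, that of Anxa2 also not with normexp fitted on all spots and that of S100a10 not without uninjured replicate 1 (limma adjusted p = 0.052). Plgrkt, a plasminogen receptor gene, fell by 0.32 (SE 0.081, limma adjusted p = 0.015), and was not called with median centring (limma adjusted p = 0.11) or with the slide as a fixed block (limma adjusted p = 0.16). Fgg, which encodes a chain of fibrinogen, the precursor of fibrin, fell by 0.61 (SE 0.15, limma adjusted p = 0.015). Its probe was dim, with a Cy5 signal of 102 to 297. Over the processing alternatives the Fgg difference ranged from −1.41 (Agilent's ratio) to −0.53 (slide as a random block). The 8 genes that were not called included Plg itself, the gene of plasminogen, at a difference of −0.086 (limma adjusted p = 0.39), which was above background on 3 uninjured arrays and 1 injured array. Serpinb2, Serpina5, Klkb1, F12 and Fga were not above background on enough arrays to be tested.

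Of 20 other genes of coagulation and the protein C pathway, 16 were tested. Of the 16, 1 rose and 2 fell (18.8% called, against 25.4% of all genes), and the median difference was 0.11. Pros1, which encodes protein S, the cofactor of activated protein C, read −0.26, −0.39, −0.064 and −0.16 in uninjured and 0.51, 0.72, 0.60, 0.54 and 0.65 in injured samples. The groups did not overlap. Pros1 rose by 0.82 (SE 0.076, 1.77-fold, limma adjusted p = 3.5e-05), and its second probe differed by 0.73. Proc, the gene of protein C itself, was lower by 0.30 (difference −0.30, SE 0.084, limma adjusted p = 0.026), and F8, a clotting cofactor, was lower (difference −0.27, SE 0.066, limma adjusted p = 0.012). The call of Proc was lost without uninjured replicate 1 or 3 or injured replicate 4, and those of both genes with the slide as a fixed block or with Agilent's own ratio. Both probes were dim, with Cy5 signals of 95.8 to 191 (Proc) and 138 to 236 (F8). Over the processing alternatives Proc ranged from −0.59 to −0.21 and F8 from −0.45 to −0.25.

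The 13 genes of this list that were not called included the sources and starters of thrombin. F2, which encodes prothrombin, differed by 0.017 (limma adjusted p = 0.89), and its sign turned with the processing. The difference of F3, the tissue factor that starts clotting, was 0.17 (limma adjusted p = 0.26) and without injured replicate 1 it was 0.25 (limma adjusted p = 0.043), and that of F2rl3, the remaining thrombin receptor, was 0.041 (limma adjusted p = 0.74). Vwf, also not called, had a larger difference of 0.73 with a wider SE of 0.30 (limma adjusted p = 0.10). It was called only with the slide as a random block (limma adjusted p = 0.043). Pros1 kept its call under all 21 alternatives, with a highest limma adjusted p of 0.011.

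**Figure D3:**
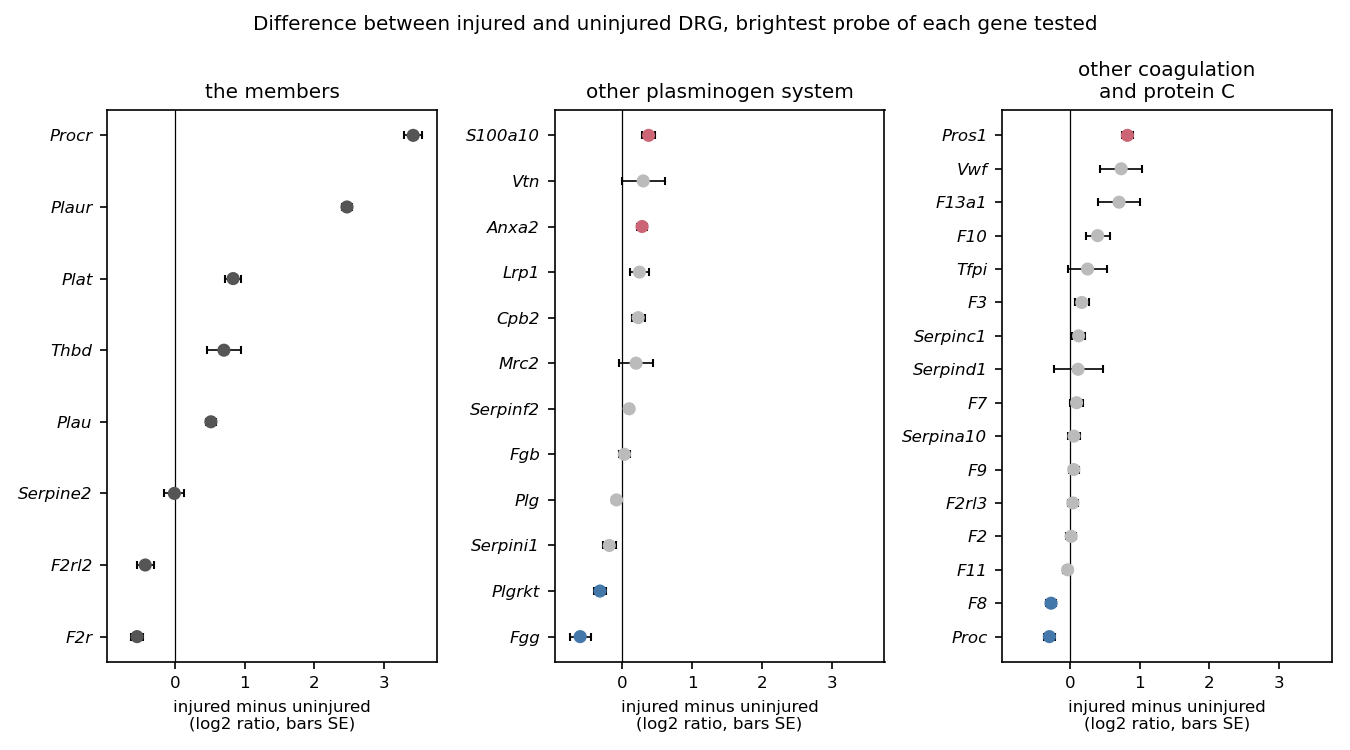
Difference between injured and uninjured DRG (log2 ratio, points) with its SE (bars) for the brightest probe of each member (dark grey, calls not marked) and of each gene tested in the other plasminogen list and the other coagulation and protein C list. Red points were called higher, blue points called lower and light grey points not called by limma at a Benjamini-Hochberg adjusted p under 0.05. Among the called genes shown, Pros1 lies at 0.82 and Fgg at −0.61. Vwf and F13a1, which were not called, are among the genes with a wide SE (0.30 for each).

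Several members are also genes of vessel walls, macrophages or platelets, so lists of marker genes for other cells of the ganglion were read on the same arrays, each as its mean log2 ratio less the uninjured mean. The 9 endothelial genes spanned −0.24 to 0.15 on uninjured and 0.00068 to 0.60 on injured arrays. Of them, 1 was called (Tek, higher by 0.47), or 11.1%, against 25.4% of all genes. The defining endothelial gene Cdh5 differed by 0.13 (SE 0.29). On injured replicates 1 and 3, where the endothelial list stood at 0.091 and 0.00068, inside the uninjured range, Procr was at 1.72 and 1.58. On injured replicates 2, 4 and 5 the list lay above that range, at 0.29, 0.25 and 0.60. Procr was at 1.83, 1.87 and 1.66 there. The highest Thbd value, on injured replicate 5, fell on the array where the endothelial list (0.60) and the endothelial gene Vwf (4.34, against 2.68 to 2.99 on the other injured arrays) were highest. The lowest Thbd values fell on uninjured replicates 1 and 2, where the list was lowest. The part of vessel cells in the Procr and Thbd values was not tested.

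The 10 macrophage genes spanned −0.39 to 0.30 on uninjured and 0.13 to 1.11 on injured arrays. Of them, 3 were called higher (Aif1 by 0.90, Cd14 by 0.83 and Itgam by 0.50), or 30%, against 25.4% of all genes. The differences of all 10 were positive, with a median of 0.70. On injured replicate 1 the macrophage list stood at 0.13, inside the uninjured range, and Plaur was at 0.79 there. On injured replicate 2, which had the highest macrophage list (1.11) and red blood cell list (1.57), Plaur was at 0.94. On injured replicates 3, 4 and 5 the macrophage list also lay above the uninjured range, at 0.43, 0.50 and 0.95. Plaur was at 0.69, 0.83 and 0.61 there. Of the 6 platelet genes, 1 was called (16.7%, Gp1bb, higher by 1.16), and the list spanned −0.26 to 0.29 on uninjured and 0.089 to 1.12 on injured arrays. Of the 6 satellite glia genes, 2 were called higher (33.3%, Glul by 0.78 and Gfap by 1.08), and 3 of the 6 had a positive difference. Gfap was above background on 1 uninjured and 5 injured arrays, so it passed the filter through the injured group and its uninjured level lay near background. The satellite glia list spanned −0.097 to 0.11 on uninjured and 0.17 to 0.54 on injured arrays. Of the 10 sensory neuron genes, 2 were called lower (20%, Isl1 by −0.49 and Scn9a by −0.54). The skeletal muscle list was highest on injured replicates 4 (2.77) and 2 (1.51) and stood at −0.065 to 0.095 on uninjured arrays. It was 0.31 on injured replicate 5, and −0.12 and −0.16 on injured replicates 1 and 3. No tested gene of the skeletal muscle, fibroblast, myelin or red blood cell lists was called. The part of these cells in the differences of Plaur, Plau, Plat, Procr, Thbd, F2r and F2rl2 was not tested.

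**Figure D4:**
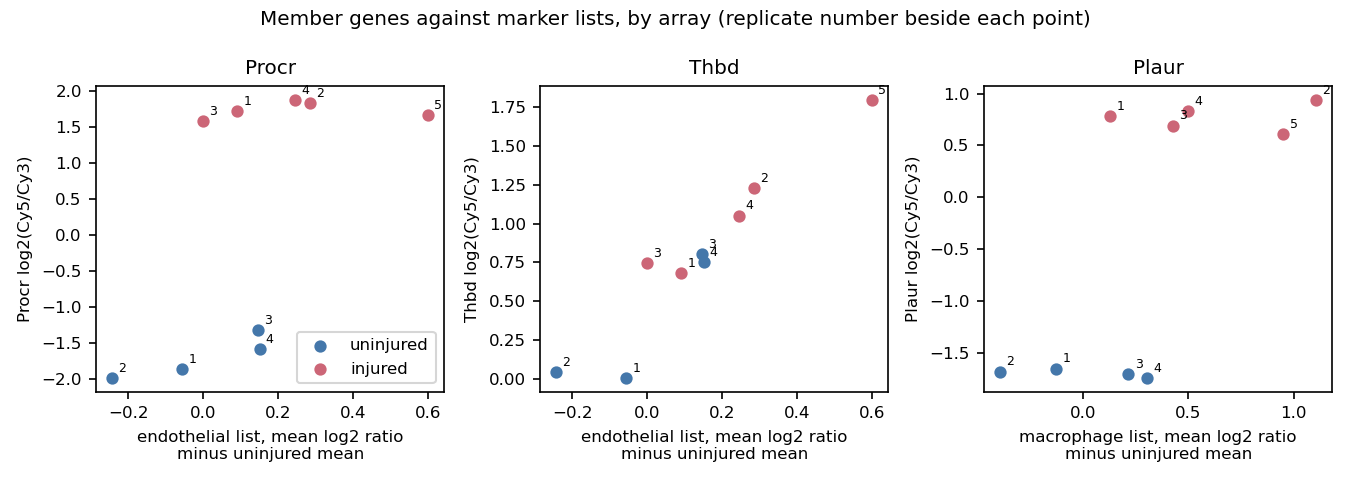
Log2 ratio of Procr and Thbd against the mean of 9 endothelial genes, and of Plaur against the mean of 10 macrophage genes (both means less their uninjured mean), on 4 uninjured (blue) and 5 injured (red) arrays, with replicate numbers. Procr and Plaur form separate groups, while Thbd runs from 0.0059 to 1.80 and overlaps between groups. The list values overlap only in part. The endothelial list spans −0.24 to 0.15 on uninjured and 0.00068 to 0.60 on injured arrays, and the macrophage list −0.39 to 0.30 and 0.13 to 1.11. The part of these cells in the 3 genes was not tested.

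Among the genes whose log2 ratios ran most like that of Procr over the 9 arrays were Cyp1b1 (Pearson r = 0.998), Aim1 (0.997), Akr1b8 (0.997) and Lmo7 (0.997). These 4 were higher after injury, by 1.25, 1.62, 1.39 and 2.72. The 5 most like Plat were Cebpd (0.995), Rpn1 (0.993), Txnrd1 (0.989), Ell2 (0.987) and a transcript without a symbol (0.987), higher by 0.26 to 1.45. These correlations are descriptions over 9 arrays that fall into the same groups of 4 and 5, so a gene that only differs between the groups already correlates closely.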

How the data were processed

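DRG RNA of 4 uninjured and 5 injured samples (Cy5) was compared with a universal mouse reference (Cy3) on 2-colour Agilent arrays. The deposited scanner intensity values are mean spot signals and median local backgrounds, read with Feature Extraction 10.5.1.1 per the file headers. A deposited log10 ratio column holds values that Agilent's software had background-modelled and dye-normalized. The authors' processed values are log2 ratios, with the background corrected and normalized within each array, and the submitters' notes name limma. Their medians were 0.020 to 0.024, and their slope against the values used here was 0.985 to 0.994, so scale and direction were the same.

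Here limma 3.58.1 (R 4.3.3) was run on the intensities, with normexp (offset 50), loess within each array and the mean of repeated spots. Spots flagged non-uniform were left out of the fit, because on injured replicate 2, with 20 spots of uneven local background, a fit on all spots raised the slope to 1.18. Of 41174 probes (43379 spots), 31186 had Cy5 above background on at least 4 arrays, and the brightest probe stood for each of 20898 genes. Current names came from the accession (22944 probes), the symbol (6664) or an earlier symbol (3108), and 8458 probes had no match. Groups were compared with lmFit and eBayes at a Benjamini-Hochberg adjusted p under 0.05, and the procedure was tested on simulated data. The number of arrays limits the precision. Members and gene lists were chosen with earlier results of these data known. Named were all members with every probe, all called genes of the 2 pathway lists and up to 5 others, Atf3, and the 5 genes most like Procr and most like Plat. Marker genes, the second probe of Pros1, Calca and Nefh were chosen once values were known. A gene that these rules would also have named is not reported here and was left out of the list counts. The alternatives comprised other background corrections and offsets, median centring, Agilent's ratio, the authors' values, Cy5 alone, other filters, the mean of a gene's probes, slide blocks and leaving out each array. Promoter windows came from RefSeq (GRCm38.p6), probe coordinates from the files (mm7). Plots used matplotlib 3.10.9 under Python 3.11.15.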

Additional observations from a re-analysis of the deposited data

Results flagged for a closer look

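Among 56 sets of values, of 4 or 5 samples each, that were screened for a single sample far from the rest, 1 stood out, where chance gives about 1 in 20. Plgrkt, the plasminogen receptor gene of the wider pathway, was at −1.77 in uninjured replicate 2, while the other uninjured samples lay between −1.56 and −1.52. Without that sample Plgrkt was still called lower by limma (difference −0.38, adjusted p = 0.0069), while median centring and the slide as a fixed block ended its call.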

How the results depend on the processing

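Procr and Plaur kept their direction and their call under all 21 alternatives, and Plau, Plat and F2r under 20, the exception being the slide as a fixed block. Over 12 processing alternatives Procr ranged from 3.37 to 3.61, Plaur from 2.41 to 2.73, Plat from 0.49 to 0.87, F2r from −0.65 to −0.49 and F2rl2 from −0.83 to −0.37. Serpine2 changed sign to 0.086 with Cy5 alone, 0.063 with the slide as a random block, 0.057 with Agilent's ratio and 0.063 without background correction, and ranged from −0.094 to 0.075 with an array left out. F2 changed sign to −0.012 with the authors' values, −0.12 with the slide as a fixed block, −0.0067 without background correction and −0.016 when Agilent's ratio was taken. With an array left out F2 ranged from −0.022 to 0.046 and F2rl3 from −0.028 to 0.091.

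With median centring 2659 genes were called, and with the slide as a fixed block 1178, of which 2 were members. The slide as a random block, fitted at a correlation within slides of −0.21, gave the most calls of any setting, 7408. The share of calls that were higher was 45.0%, and between 36.9% and 53.4% under the alternatives. The number of other plasminogen genes called higher by limma was 0 with an offset of 0, with median centring, with Cy5 alone and with the slide as a fixed block (3, 0, 1 and 3 at an unadjusted p under 0.05), and the number called lower was 1 with median centring, Agilent's ratio, both channels above background and the slide as a fixed block. For the other coagulation genes, 4 were called higher with the slide as a random block, and 0 lower by limma with Agilent's ratio or the slide as a fixed block (2 and 1 at an unadjusted p under 0.05). With an array left out, the count of genes called ranged from 4026 (without uninjured replicate 1) to 5446 (without injured replicate 5), members called from 5 to 7, other plasminogen genes called higher from 1 (without uninjured replicate 1) to 3 and lower 2 throughout, and coagulation genes called higher from 1 to 2 and lower from 1 to 2. Fgg lost its call with Agilent's ratio (adjusted p = 0.063, highest of its alternatives). The cause of these changes was not tested.

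No paired analysis was possible because no animal or replicate number in the labels ties samples of both groups. Signal over background limits Plau and F2rl2, whose probes were dim (Cy5 signals of 120 to 218 and 139 to 319), and F2rl1, which was not above background. Probes of the wider pathway lists were also dim, among them Fgg (102 to 297), F8 (138 to 236) and Proc (95.8 to 191). The same holds for F2 (86.4 to 129) and F2rl3 (80.6 to 134). Slide 2 held a single uninjured array, so the fit with the slide as a fixed block rests on it.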
